A study of Homo sapiens with 2 samples.

Results

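MALAT1, NEAT1, TUG1 and MIAT are 4 long noncoding RNAs known for residing in the nucleus. They were taken by gene name from a table of 55797 genes, and each name matched 1 row. The values come from 1 library of live cells and 1 library of processed cells, and both derive from the established human embryonic stem cell line H1, differentiated to Stage 6, a mixed culture that contains insulin-expressing cells. Live cells were neither fixed nor sorted, and their RNA was extracted with the RNeasy protocol. Processed cells were fixed in 4% paraformaldehyde, permeabilized, antibody stained and mock sorted with all cells kept, and their RNA was extracted with a modified RecoverAll kit after a long protease digestion. In both cases poly-A RNA was selected, and read pairs with 80 nt per end were sequenced. The comparison asks whether fixation, staining and sorting change the representation of these RNAs relative to fresh cells. With 1 library per condition no difference has a replicate check, and the extraction kit cannot be told apart from the other steps of processing.

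Long noncoding RNAs are transcribed like messenger RNAs but are not known mainly for coding protein, and many act where they are made. MALAT1 accumulates in nuclear speckles, bodies rich in splicing factors. NEAT1 is the scaffold of paraspeckles, bodies built from RNA-binding proteins such as NONO and SFPQ, and it exists as a short polyadenylated form and a long form. TUG1 was first described in the developing retina and is found in the nucleus and the cytoplasm, and MIAT, also known as Gomafu, forms a distinct nuclear pattern in neurons. The mature 3′ ends of MALAT1 and of the long form of NEAT1 are not made by cleavage and polyadenylation. RNase P cuts them ahead of a tRNA-like structure, and a pair of U-rich motifs folds with an A-rich tract encoded in the genome into a triple helix that protects the end. TUG1, MIAT and the short form of NEAT1 end in an ordinary poly-A tail.

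The 3′ ends are shown first because the RNA was selected by poly-A, and the 4 RNAs differ there. All sequences were read 5′ to 3′ from the plus strand of GRCh37, the build of the authors' files. In the first pair, capitals mark the U-rich motifs (written with T) and the A-rich tract, at chr11:65273468-65273587 for MALAT1 and chr11:65212892-65213011 for NEAT1.
MALAT1: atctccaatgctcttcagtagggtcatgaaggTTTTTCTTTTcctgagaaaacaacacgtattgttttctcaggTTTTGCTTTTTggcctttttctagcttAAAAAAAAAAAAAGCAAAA
NEAT1: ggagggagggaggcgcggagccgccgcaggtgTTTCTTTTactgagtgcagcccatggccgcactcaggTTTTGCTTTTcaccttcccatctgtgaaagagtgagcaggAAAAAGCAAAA
The genome-encoded A-rich tract opens with 13 adenines in MALAT1 and with 5 in NEAT1. The NEAT1 interval in the authors' table ends on the last base of this tract. The MALAT1 interval goes on for 353 bases past it, and therefore also covers the tRNA-like RNA that is cut off and sequence beyond it. The order of motifs (at least TTTCTTTT or TTTGCTTTT, the same again, then at least AAAAAGCAAAA, within 120 bases, transcribed strand only) was written to fit these RNAs. Of 16714 genes that reached an FPKM of 1 in either library and had a strand in the annotation, 2 (0.0120%) held it in the last 500 bases of their interval, and these were MALAT1 and NEAT1.

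The second set gives the last 50 bases of the annotated intervals of MALAT1 (chr11:65273891-65273940), TUG1 (chr22:31374782-31374831) and MIAT (chr22:27072389-27072438), with a polyadenylation signal in capitals.
MALAT1: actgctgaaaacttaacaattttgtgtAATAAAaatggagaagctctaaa
TUG1: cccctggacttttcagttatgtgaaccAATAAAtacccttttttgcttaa
MIAT: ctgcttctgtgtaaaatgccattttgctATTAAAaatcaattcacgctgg
TUG1 holds the common signal AATAAA, and MIAT holds the variant ATTAAA. The annotated end of MALAT1, downstream of its triple helix, also holds AATAAA. The end of NEAT1 holds neither. On the transcribed strand, AATAAA stood in the last 50 bases of 52.1% of the 16714 genes and either signal in 64.5%, so a match is common and is a description of the letters alone.

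MIAT also carries copies of TACTAAC, the letters of the intron branch point that the splicing factor SF1 recognises and that resemble the site bound by QKI. The stretch with the most copies lies at chr22:27067986-27068198, and capitals mark its 4 copies.
MIAT: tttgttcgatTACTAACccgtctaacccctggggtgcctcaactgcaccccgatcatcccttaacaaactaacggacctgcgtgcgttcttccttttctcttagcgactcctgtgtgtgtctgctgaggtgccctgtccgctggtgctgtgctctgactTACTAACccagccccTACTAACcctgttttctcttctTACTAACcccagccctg
The longest annotated MIAT transcript, of 10142 nt, held 7 copies on the transcribed strand. Of 887 other expressed genes whose longest transcript was within 1.2-fold of that length, 0 held as many, and the highest number among them was 3. The motif was chosen for MIAT, so this count is a description and not a test. NEAT1 held 1 copy in 22743 nt, and MALAT1 and TUG1 held 0.

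MALAT1 was the member that was higher in processed cells, and NEAT1, TUG1 and MIAT were lower. FPKM counts the fragments of a gene relative to its length and to the size of the library, which puts genes of unlike length on one scale. The paper reports coverage biased to the 3′ end in longer genes, and a small increase of this bias with processing. The longest annotated transcripts of the members range from 7474 nt for TUG1 to 22743 nt for NEAT1. The effect of this bias on their levels and ratios was not tested. The authors' table gives a lower and an upper bound for each FPKM, of a level that is not stated, and these bounds describe the precision within 1 library. Ratios are log2((processed FPKM + 1) / (live FPKM + 1)), and the range in brackets after a ratio is the widest that the bounds of both libraries allow.

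MALAT1 (ENSG00000251562.3, chr11:65265233-65273940, plus strand) had an FPKM of 40.6 in live cells, with bounds of 39.5 and 41.8. It had an FPKM of 94.2 in processed cells, with bounds of 92.7 and 95.8. The level was 2.32 times as high in processed cells, a log2 ratio of 1.19 (1.13 to 1.26). The bounds did not overlap, and MALAT1 was the only member past 2-fold. An antisense gene annotated across MALAT1 in the later GENCODE release 44 has no row of its own in the authors' table, and whether counting used strand is not given in the sources used here, so antisense reads cannot be told apart.

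NEAT1 (ENSG00000245532.2, chr11:65190245-65213011, plus strand) had an FPKM of 8.87 in live cells, with bounds of 8.39 and 9.35. In processed cells it was 4.83, with bounds of 4.49 and 5.16. The live level was 1.84 times the processed level, and the log2 ratio was -0.76 (-0.91 to -0.61). The direction was thus opposite to that of MALAT1, whose type of 3′ end is shared by the long form of NEAT1 only. The table holds 1 value for the whole gene, and the short and long forms of NEAT1 cannot be told apart in it.

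TUG1 (ENSG00000253352.3, chr22:31366663-31374831, plus strand) had an FPKM of 44.5 in live cells, with bounds of 43.4 and 45.6. The processed value was 34.4, with bounds of 33.9 and 35.0. Its log2 ratio of -0.36 (-0.41 to -0.31) was the smallest in size among the 4, although the bounds did not overlap. GENCODE release 44 lists TUG1 as protein-coding, whereas it lists the other three as long noncoding RNAs.

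MIAT (ENSG00000225783.2, chr22:27042392-27072438, plus strand) had an FPKM of 7.74 in live cells, with bounds of 7.33 and 8.14. In processed cells it had 4.58, with bounds of 4.43 and 4.72. The live level was 1.69 times the processed level, a log2 ratio of -0.65 (-0.75 to -0.54). MIAT and NEAT1 were thus close to each other in level and in ratio in these libraries.

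**Figure D1:**
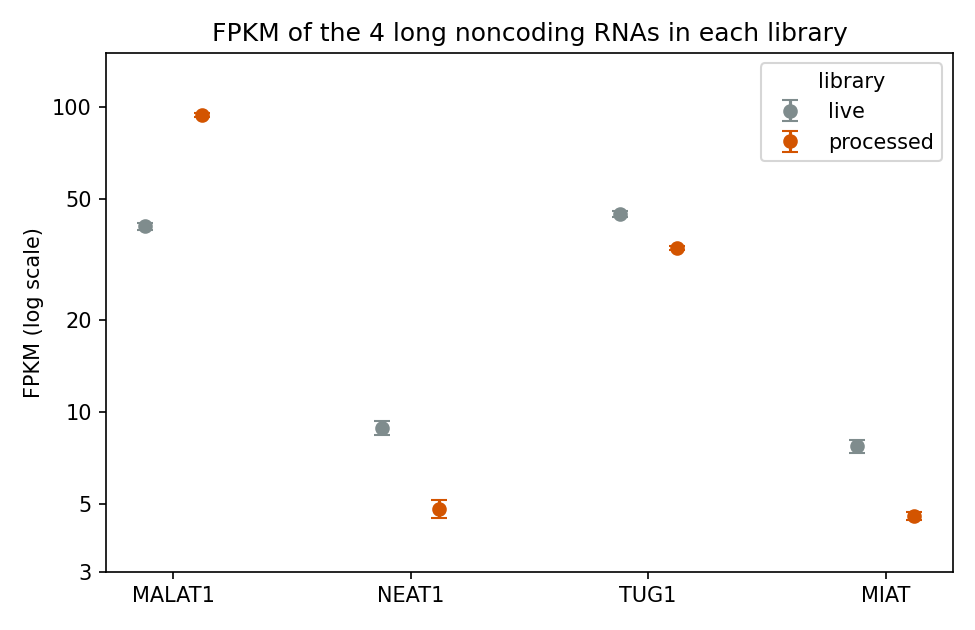
FPKM on a log axis for MALAT1, NEAT1, TUG1 and MIAT in the live and the processed library, 1 library each. Points are the deposited values and bars the authors' lower and upper bounds. MALAT1 goes from 40.6 to 94.2, and the other three are lower in processed cells.

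Past 2-fold, 1 of the 4 members was higher in processed cells and 0 were lower. Over all 17326 genes that reached an FPKM of 1 in either library, 6.57% were higher by more than 2-fold and 6.19% were lower by as much. Among the 1378 genes of this kind that release 44 types as long noncoding, the shares were 24.6% and 14.7%, and their median log2 ratio was 0.27, against -0.09 over all 17326. These shares are over long noncoding genes of all levels, and MALAT1 ranked 19 among them in live and 7 in processed cells. Bounds were separate and higher in processed cells for 1 member and separate and lower for 3, and the corresponding shares of all genes tested were 28.1% and 43.7%. Separate bounds were thus common in either direction. The median log2 ratio of the 4 members was -0.50.

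**Figure D2:**
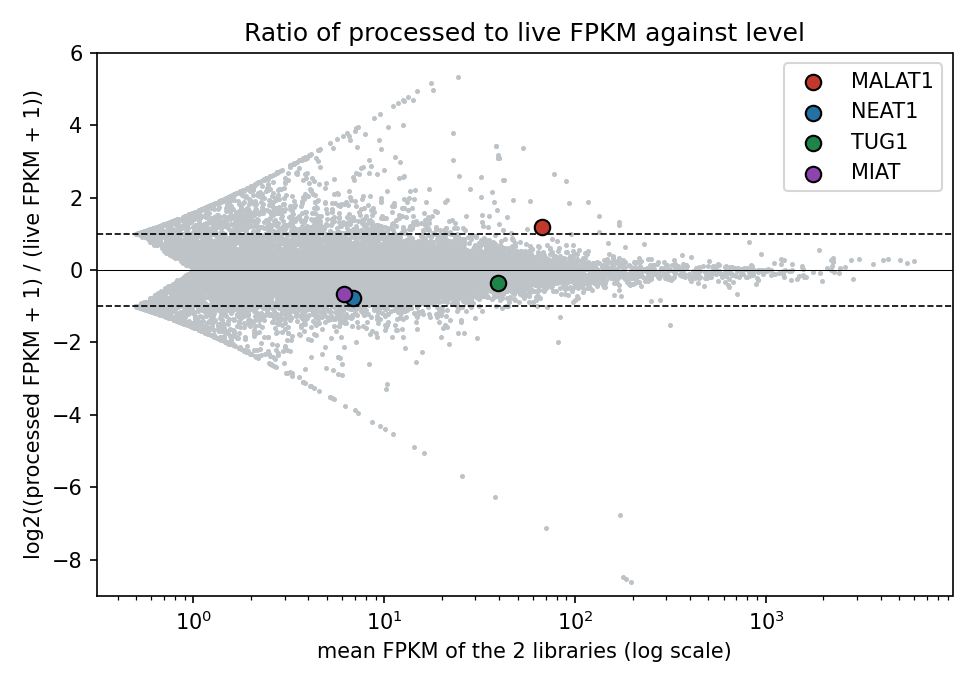
Log2 ratio of processed to live FPKM (pseudocount 1) against the mean FPKM of both libraries on a log axis, for genes that reached an FPKM of 1 in either library (grey) and the 4 RNAs (coloured). Dashed lines mark 2-fold. MALAT1 lies above the upper line at a ratio of 1.19, and NEAT1, TUG1 and MIAT lie between the lines.

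Because ratios spread more widely at low expression, each member was also placed among genes whose mean FPKM was within 2-fold of its own. MALAT1 stood near the top, with 2036 of 2060 such genes (98.8%) having a lower ratio, and their central 95% ran from -0.63 to 0.72. For TUG1, 609 of 3655 genes (16.7%) had a lower ratio. For MIAT the number was 787 of 5856 (13.4%), and for NEAT1 it was 533 of 6012 (8.87%). The ratios of TUG1, MIAT and NEAT1 therefore lay within the central 95% of genes of like level, from -0.74 to 0.81, -1.24 to 1.57 and -1.19 to 1.50 respectively, and that of MALAT1 lay outside it. These are positions among genes in 1 pair of libraries and carry no error of a repeated experiment.

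**Figure D3:**
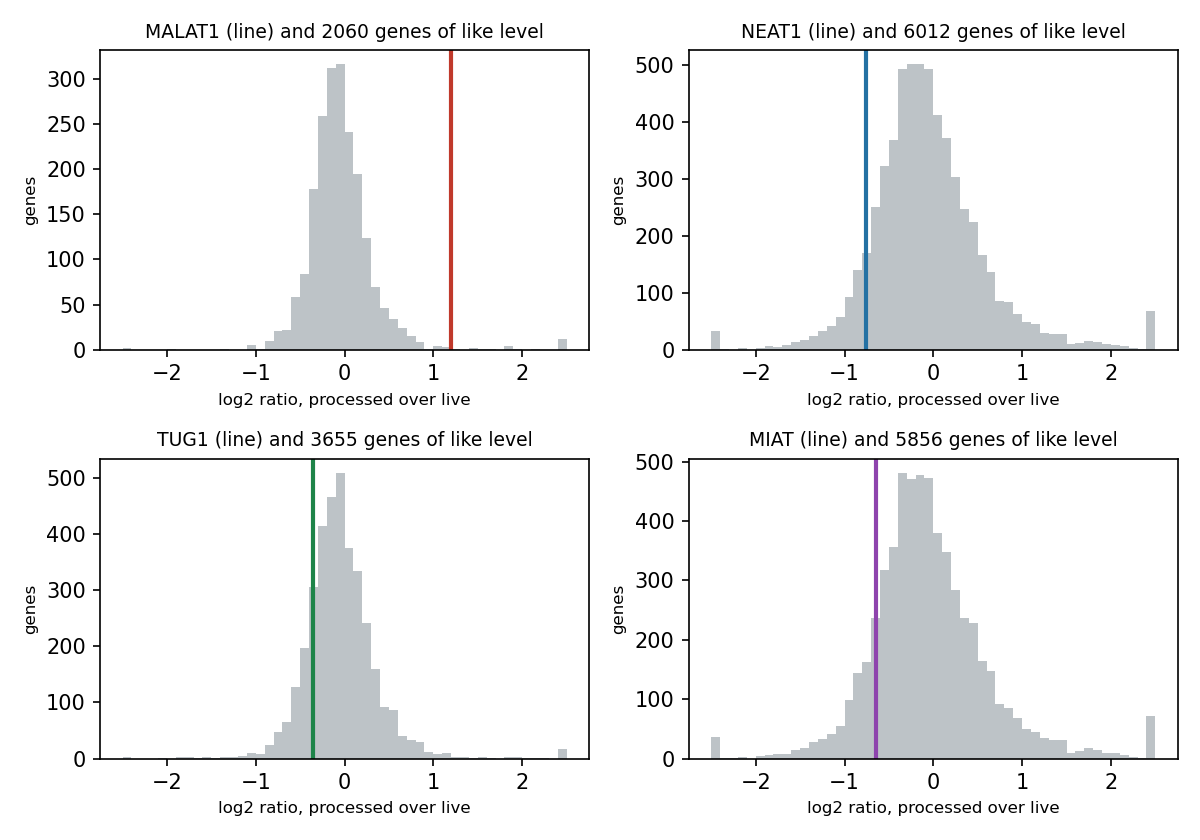
Histograms of the log2 ratio of processed to live FPKM for genes with a mean FPKM within 2-fold of each RNA, with a coloured line at the value of the RNA itself. Ratios beyond -2.5 or 2.5 are gathered in the end bins. The line of MALAT1 stands at 1.19 in the upper tail, and those of NEAT1 (-0.76), TUG1 (-0.36) and MIAT (-0.65) stand on the lower flank.

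The order of the levels changed between the libraries. In live cells TUG1 was highest (44.5), followed by MALAT1 (40.6), NEAT1 (8.87) and MIAT (7.74), and the bounds of neighbours in this order did not overlap. In processed cells MALAT1 (94.2) was above TUG1 (34.4), whereas NEAT1 (4.83) and MIAT (4.58) had overlapping bounds. Judged by 1 FPKM value per gene in these poly-A selected libraries, the name "abundant" held for MALAT1 and TUG1 only. The level of forms without a poly-A tail was not measured. In live cells TUG1 exceeded 88.7% and MALAT1 87.2% of genes at or above an FPKM of 1, but NEAT1 exceeded 47.3% and MIAT 43.4%. In processed cells the shares were 95.8% for MALAT1, 85.1% for TUG1, 31.8% for NEAT1 and 30.4% for MIAT. Ranked by FPKM among the 1378 long noncoding genes, MALAT1 was at place 19 in live and 7 in processed cells. The nuclear location was not measured, since RNA of whole cells was sequenced.

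Ratios between members within a library do not depend on how a library was scaled. MALAT1 was 0.913 times the level of TUG1 in live cells and 2.74 times in processed cells, a shift of 1.58 on the log2 scale (1.46 to 1.70). Relative to NEAT1, MALAT1 went from 4.58 to 19.5 times, a shift of 2.09 (1.85 to 2.33). Relative to MIAT it went from 5.25 to 20.6 times, a shift of 1.97 (1.79 to 2.15). MALAT1 thus differed from each of the other three by far more than the bounds. The 3 RNAs that were lower differed less among themselves. TUG1 was 5.02 times NEAT1 in live and 7.14 times in processed cells, and 5.75 and 7.53 times MIAT. NEAT1 was 1.15 times MIAT in live and 1.05 times in processed cells, and for this pair alone among the 6 the range of the shift (-0.42 to 0.18) included 0. Summed over the 4 RNAs, FPKM was 102 in live and 138 in processed cells, of which MALAT1 made up 39.9% and 68.2%.

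Counting error within a library was small for all 4 RNAs. The tables hold no counts, so the worth of 1 fragment was estimated from low values of genes with a single transcript. The most frequent step among them was taken as 1 fragment per kilobase. It was 0.0100 FPKM in the live and 0.0107 FPKM in the processed library. Near this step lay 249 of 1238 low values in the live and 219 of 767 in the processed library, so the estimate is rough. On that scale MALAT1 had about 4056 fragments per kilobase in live and 8772 in processed cells, and TUG1 had 4441 and 3207. NEAT1 had about 885 and 449, and MIAT about 772 and 426. The half-width of the authors' bounds ranged from 1.47% of the value for TUG1 to 6.94% for NEAT1, both in processed cells. It covers neither preparation nor culture.

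Genes around the members did not share their ratios in general. MALAT1 and NEAT1 are neighbours on chromosome 11 with opposite ratios. Between them lies AP000769.1, with an FPKM of 0.388 in live and 1.11 in processed cells and overlapping bounds. FRMD8, next to NEAT1, had 9.78 FPKM in live and 7.50 in processed cells, a log2 ratio of -0.34 with separate bounds. MIR612, a microRNA gene inside NEAT1, was listed at 0 in both libraries. On chromosome 22, the row of MTMR3 spans TUG1 and had 13.5 and 13.1 FPKM. MORC2, at 2379 bases from TUG1 and on the other strand, had 19.8 and 21.3 FPKM, and both of these genes had overlapping bounds. SMTN, the next expressed gene beyond TUG1, was past 2-fold, with 9.98 FPKM in live and 23.1 in processed cells and a log2 ratio of 1.13. Of the 2 rows that overlap MIAT, CTA-211A9.5 had 1.93 and 2.21 FPKM with overlapping bounds, and CTA-373H7.7 was practically at 0 in both libraries. The nearest expressed genes on either side of MIAT were CRYBB1 (0.401 and 1.13 FPKM), which encodes a lens crystallin, and RP1-40G4P.1 (4.47 and 6.09 FPKM). Both were higher in processed cells with separate bounds, the opposite direction to MIAT.

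Other noncoding RNAs, from a list chosen with earlier results of these data known, gave the widest spread of any gene list examined. The upper end of this spread was set by 3 short RNAs named below. Of 25 listed names, 22 were in the table and 18 reached an FPKM of 1 in either library. Of these 18, 3 were higher and 1 was lower by more than 2-fold. The shares higher and lower were 24.6% and 14.7% over all long noncoding genes tested, and 6.57% and 6.19% over all genes tested. The median log2 ratio of the 18 was 0.25, beside 0.27 for all long noncoding genes tested, but the 18 mix RNA classes. Apart from the 3 that were higher, the highest log2 ratio in the list was 0.63. The 3 that were higher are short RNAs made by RNA polymerase III without a poly-A tail. RN7SK, which holds the elongation factor P-TEFb inactive, had 8.64 FPKM in live and 98.6 in processed cells, a log2 ratio of 3.37. RMRP, the RNA of RNase MRP, had 4.21 and 41.6 FPKM, a log2 ratio of 3.03, and in both cases the bounds were separate. RPPH1, the RNA of the RNase P that cuts MALAT1, had 5.35 and 29.1 FPKM, but its bounds started at 0 in both libraries and its status was low data. The intervals of these 3 genes are 331, 264 and 333 bases long, and FPKM of such short RNAs is sensitive to the fragment length assumed. TERC, the telomerase RNA, which also lacks a poly-A tail, was at 0.564 FPKM in live cells and listed at 0 in processed cells. LINC00152 was the RNA more than 2-fold lower with a pseudocount of 1, at 5.97 and 1.87 FPKM and a log2 ratio of -1.28. Without the pseudocount PVT1 (4.78 and 1.94 FPKM) and FTX (2.43 and 0.995 FPKM) were also more than 2-fold lower.

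The polyadenylated RNAs of this list lay on either side of 0. H19, an imprinted RNA, had 3872 and 4822 FPKM. SNHG1 and GAS5, hosts of small nucleolar RNAs, had log2 ratios of 0.17 and -0.36. LINC00657, also called NORAD, which binds PUMILIO proteins, had 63.0 and 51.5 FPKM, a log2 ratio of -0.29. KCNQ1OT1, a nuclear RNA of an imprinted domain, was far below 1 in both libraries, with 0.0484 FPKM in live and 0.307 in processed cells. LINC00657 and KCNQ1OT1 were named after their values had been seen.

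Genes for proteins of the bodies in which MALAT1 and NEAT1 reside were all within 2-fold, as were most genes tested, of which 6.57% were higher and 6.19% lower by more. All 18 listed paraspeckle proteins reached an FPKM of 1, with 0 past 2-fold in either direction and log2 ratios from -0.47 to 0.27 (median -0.16). NONO, a core protein of paraspeckles, had 389 and 358 FPKM. HNRNPA1 had 1637 and 1484 FPKM, and HNRNPK had 332 and 280 FPKM with processed bounds from 0 to 898. Of the 17 nuclear speckle proteins, 0 were past 2-fold, and log2 ratios ran from -0.94 to 0.31 (median -0.08). SRRM2, a scaffold of speckles, had 214 and 266 FPKM, and the splicing factors SRSF5 and SRSF3 had 200 and 185 FPKM and 174 and 154 FPKM. DYRK1A, a kinase of splicing factors, had the ratio of -0.94, from 29.9 to 15.1 FPKM, and was named after its values had been seen. The highest ratio in either list, 0.31, was under that of MALAT1.

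Genes for the enzymes that form the 3′ end of MALAT1 and the long form of NEAT1 were within 2-fold on the scale with a pseudocount of 1. The list of RNase P proteins, the RNase Z gene ELAC2 and METTL16, which binds the MALAT1 triple helix, held 12 genes with log2 ratios from -0.60 to 0.76 and a median of 0.23. RPP30 had 28.8 and 34.0 FPKM, POP4 had 21.2 and 29.6 FPKM, and ELAC2 had 27.9 and 21.9 FPKM. Without the pseudocount POP1, which encodes an RNase P subunit, was past 2-fold, at 1.88 and 3.87 FPKM. Bounds were separate and higher for 6 of the 12 genes and separate and lower for 3, beside 28.1% and 43.7% of all genes tested.

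Of the proteins reported to bind MIAT, SF1 had 136 and 129 FPKM and CELF3, a neuronal splicing regulator, had 8.20 and 9.43 FPKM. QKI, an RNA-binding protein of the STAR family, had 48.9 and 29.3 FPKM. The log2 ratio of QKI was -0.72, that of SF1 -0.08 and that of CELF3 0.18, beside -0.65 for MIAT itself. Of 5 genes whose proteins have been reported with TUG1, 4 reached an FPKM of 1. Of these 4, 0 were past 2-fold, beside 6.57% higher and 6.19% lower over all genes tested. Their median log2 ratio was -0.30, and the lowest was -0.72. EZH2, the methyltransferase of Polycomb complex PRC2, had 35.5 and 34.0 FPKM and its partner EED had 21.8 and 14.7 FPKM.

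**Figure D4:**
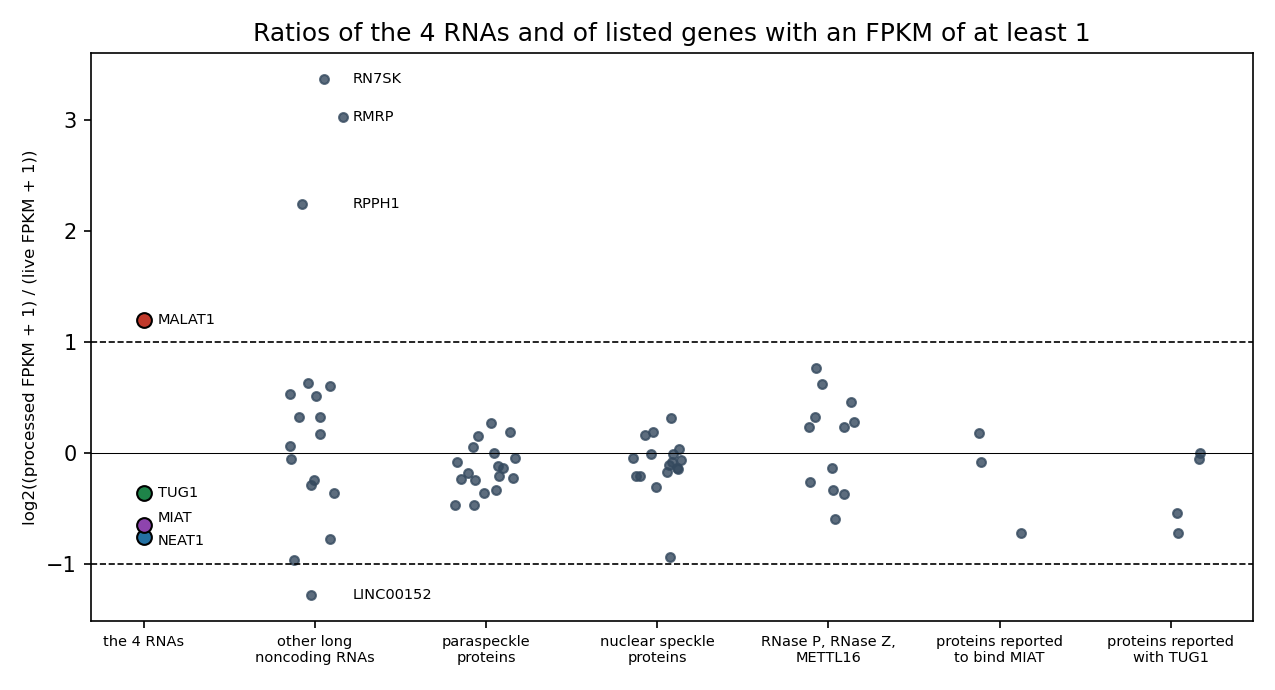
Log2 ratio of processed to live FPKM (pseudocount 1) for the 4 RNAs and for genes of 6 lists that reached an FPKM of 1 in either library, 1 point per gene, with sideways scatter only to separate points. Dashed lines mark 2-fold, and genes past it are named. RN7SK, RMRP and RPPH1 lie above MALAT1, and all listed protein genes lie between the lines.

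By level, the genes most like each member were found by the distance between their log2(FPKM + 1) values over the 2 libraries, a likeness that holds no more than a level and a ratio. For MALAT1 they were UBR4, a ubiquitin ligase (39.4 and 85.2 FPKM), and the pseudogene RP11-736L22.1 (34.8 and 77.7 FPKM). The distance of UBR4 was 0.150, and MALAT1 had no neighbour as near as those of the other members. TUG1 was matched by PICALM and PFKM at distances of 0.00546 and 0.0125, MIAT by TRIM25 and MOCS1 at 0.00247 and 0.0210, and NEAT1 by NAGPA and CLP1 at 0.0233 and 0.0264.

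Markers of the culture placed the members beside the cell types present. The hormone genes INS, GCG and SST had 98.3, 135 and 243 FPKM in live cells and 121, 131 and 266 FPKM in processed cells, and epithelial, liver and stromal markers were also expressed. The summed FPKM of these lists in live and processed cells was 2859 and 2618 for epithelium, 799 and 956 for liver and 69.8 and 65.9 for stroma. Neuronal markers are given because MIAT is known from neurons. Of 5 such genes, 3 were lower in processed cells with separate bounds and 0 were higher, beside 43.7% and 28.1% of all genes tested, so the count is near the background. Their summed FPKM was 184 in live and 158 in processed cells, and none was at 0. TUBB3, the highest of them, had 149 and 129 FPKM, STMN2 had 14.8 and 10.2 FPKM and ELAVL4 had 2.23 and 1.16 FPKM. MAP2 (16.3 and 16.4 FPKM) and ELAVL3 (1.16 and 1.26 FPKM) had overlapping bounds. The immune markers PTPRC, CD14 and AIF1 were listed at 0 in processed cells. Their summed FPKM with CD68 was 3.96 in live cells and 0.703 in processed cells. Among the pluripotency markers, NANOG was past 2-fold (1.27 and 7.34 FPKM) and POU5F1 was not (7.92 and 8.53 FPKM), while LIN28A, the highest of the 3, was lower with separate bounds (119 and 88.7 FPKM). The part of neuronal cells in the value of MIAT was not tested, and in whole cultures fewer cells of a type and less RNA per cell cannot be told apart.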

How the data were processed

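The authors aligned reads with STAR 2.2.0c to GRCh37/hg19, guided by GENCODE gene annotations, and deposited one FPKM value per gene with a lower and an upper bound and a status, made with Cufflinks 2.0.2 per the labels. FPKM is normalized for length and depth; read counts were not used here. Strand-specific counting and the confidence level of the bounds are not given in the sources used here. The libraries' genes were joined by Ensembl identifier. FPKM summed to 510713 in live and 499398 in processed cells. Ratios used a pseudocount of 1, and genes past 2-fold were counted where either library reached an FPKM of 1. No test was possible with 1 library per condition.

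Gene type, strand and transcripts came from GENCODE release 44 mapped to GRCh37, which held 94.5% of identifiers, and sequences from the GRCh37 genome. For the steps of low FPKM, values of single-transcript genes were multiplied by the transcript length less a fragment length, chosen from a known earlier result. Python 3.11.15, numpy 2.4.6, pandas 2.3.3 and matplotlib 3.10.9 were used. The code was tested on simulated data. The members, gene lists and rules were chosen with earlier results of these data known. Named genes are the 4 members, rows that overlap them and the nearest expressed gene on either side, the 2 genes most like each in level, and in each list the 3 highest by mean FPKM and those past 2-fold. Of the genes this rule names, 2 are not reported here. Where a symbol had 2 rows, the higher was used. Alternatives covered the pseudocount, the filter on FPKM, status and scaling.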

Additional observations from a re-analysis of the deposited data

How the results depend on the processing

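The direction of all 4 members held under each of the 5 alternatives tried for it, and MALAT1 was the only member past 2-fold under each of them. None of these alternatives could have reversed a direction. A pseudocount does not change the sign of a ratio, and the scalings moved log2 ratios by at most 0.10, beside -0.36 for TUG1. Scaling the processed library by the median gene ratio (0.932) moved the log2 ratio of MALAT1 to 1.29 and that of TUG1 to -0.26. Equal sums over nuclear genes moved TUG1 to -0.30, and leaving out the pseudocount moved MIAT to -0.76. The other values stayed within the range that the bounds allow, as did the 6 shifts between members with a pseudocount of 1. The counts over all genes depended on low values. With a pseudocount of 0.1, 1715 genes were more than 2-fold higher and 1753 lower, in place of 1138 and 1072, and with an FPKM of at least 10 in either library there were 255 and 172. Counting the genes of each list past 2-fold without a pseudocount was an alternative chosen after seeing the data. It added PVT1 and FTX to the lower long noncoding RNAs and POP1 to the higher genes of 3′ end processing, and left the other counts as they were. No paired analysis was possible because each condition has 1 library.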

Other observations

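Replication-dependent histone genes were looked at after the values of the RNAs without a poly-A tail had been seen, since most histone mRNAs also lack one. Of 76 histone genes in the clusters, 38 reached an FPKM of 1 in either library, of which 15 were higher and 5 were lower in processed cells by more than 2-fold, beside 6.57% and 6.19% of all genes tested. These shares are over genes of all levels and lengths, and ratios spread more widely at low expression. The median log2 ratio of the 38 histone genes was 0.67, against -0.09 over all genes tested. Summed over the 76 histone genes, FPKM was 117 in the live and 139 in the processed library. The gene with the highest mean, HIST1H2BK, had a log2 ratio of 0.15, and HIST1H4J, the next, had -0.74. The part of poly-A selection in these values, or in that of MALAT1, was not tested.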
